A study of Mus musculus with 8 samples.

Results

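The genes described here encode 9 small leucine-rich proteoglycans of connective tissue: Kera (keratocan), Lum (lumican), Dcn (decorin), Bgn (biglycan), Fmod (fibromodulin), Ogn (osteoglycin, also called mimecan), Prelp (proline- and arginine-rich end leucine-rich repeat protein), Aspn (asporin) and Omd (osteomodulin). They were taken by symbol from the platform annotation of a mouse expression array. In all, 19 of 22626 probe sets carried one of these symbols, for 9 of 12393 named genes. Total RNA came from eyes of KPAW mice at 1 month, wild-type mice at 1 month, KPAW mice at 5 days and wild-type mice at 5 days, and 2 arrays, numbered I and II, stand for each group. The labels do not expand KPAW and give no allele, promoter or agent for it. A strain, C57Bl6, is named for the 5-day wild type alone. The labels do not say whether arrays I and II of a group were separate animals, so every p-value below measures only the spread between these arrays, which may be technical.

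Small leucine-rich proteoglycans are secreted core proteins built of leucine-rich repeats that carry chondroitin, dermatan or keratan sulfate chains. They bind the surface of collagen fibrils and control fibril diameter and spacing, which in the cornea keeps the stroma transparent. Keratan sulfate chains on keratocan, lumican and osteoglycin are characteristic of the corneal stroma and its keratocytes, while the sclera, eyelid dermis and tendon also use decorin, biglycan, fibromodulin and the others. Several members, decorin and asporin among them, bind the growth factor TGF-beta.

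Most of these genes lie in family clusters. In the RefSeq order of protein-coding genes (assembly GRCm38.p6), Dcn, Lum and Kera follow each other on chromosome 10, with the related gene Epyc next to Kera. Aspn, Omd and Ogn follow each other on chromosome 13. Prelp and Fmod are neighbours on chromosome 1, and Bgn stands apart from the others on the X chromosome. The 250 bases before the annotated start were available from RefSeq (GRCm38.p6) for 7 of the 9 genes, the table having no entry for Lum and Dcn. With age, the chromosome 13 neighbours Aspn and Ogn were called lower in wild type and Omd higher in KPAW. No single comparison called both directions among these neighbours. Shown here are the 250 bases of Kera, the most cornea-restricted member, at chr10:97606955-97607204, and of these neighbours, Aspn at chr13:49544193-49544442, Omd at chr13:49582212-49582461 and Ogn at chr13:49607765-49608014. All 4 lie on the plus strand and are written 5′ to 3′, with capitals marking any match, on either strand, to the TATA box (letters TATAAA), the CCAAT box (CCAAT), the E-box (letters CANNTG), the AP-1 site (letters TGANTCA), the GC box (letters GGGCGG) or the core of the SMAD binding box (letters CAGACA). Matches that overlap run together in capitals.
Kera promoter: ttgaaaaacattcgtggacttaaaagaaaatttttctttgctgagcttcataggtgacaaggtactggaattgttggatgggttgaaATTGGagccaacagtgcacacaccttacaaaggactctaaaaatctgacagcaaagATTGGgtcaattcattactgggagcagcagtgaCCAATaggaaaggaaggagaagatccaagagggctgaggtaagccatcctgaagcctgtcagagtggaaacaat
Aspn promoter: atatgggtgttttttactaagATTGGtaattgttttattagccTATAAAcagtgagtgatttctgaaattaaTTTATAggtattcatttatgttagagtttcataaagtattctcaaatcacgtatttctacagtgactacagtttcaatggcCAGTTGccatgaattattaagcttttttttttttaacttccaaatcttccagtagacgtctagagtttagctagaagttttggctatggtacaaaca
Omd promoter: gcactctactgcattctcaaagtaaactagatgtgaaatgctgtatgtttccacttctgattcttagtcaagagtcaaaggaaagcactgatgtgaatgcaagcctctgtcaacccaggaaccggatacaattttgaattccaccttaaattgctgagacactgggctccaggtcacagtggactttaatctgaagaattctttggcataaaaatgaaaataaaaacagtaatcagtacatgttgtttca
Ogn promoter: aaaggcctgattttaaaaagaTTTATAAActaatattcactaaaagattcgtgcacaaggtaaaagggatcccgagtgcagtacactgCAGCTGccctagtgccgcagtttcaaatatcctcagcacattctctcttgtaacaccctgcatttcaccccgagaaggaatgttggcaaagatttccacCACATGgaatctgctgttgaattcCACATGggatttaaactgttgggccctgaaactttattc
Kera held 3 CCAAT boxes, a motif found in 33.8% of all 32851 promoter windows of this length. Aspn and Ogn each held matches to the TATA box letters, found in 12.4% of windows, and to the E-box, found in 66.2%. Counted from the annotated start, the TATA matches began at -207 and -178 in Aspn and at -229 and -227 in Ogn. Aspn also held a CCAAT box, at -229. The window of Omd, between Aspn and Ogn on the chromosome, held none of the 6 motifs. The AP-1 site and the SMAD box, found in 6.7% and 17.1% of all windows, had no match in any of the 7 members' windows, and the GC box, in 32.7% of all windows, matched only in that of Bgn.

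Some arrays stood apart from the others of their group in ways that bear on whole-eye RNA. KPAW I at 1 month nearly lacked rod transcripts: the summed signal of 8 rod photoreceptor markers was 0.686, against 27.2 in KPAW II and 24.4 and 29.7 in wild type I and II. The corneal keratin Krt12 read 0.391 and 5.13 on the KPAW arrays of 1 month, against 6.76 and 7.82 in wild type. The 11 keratinized epidermis markers summed to 23.0 and 8.78 in KPAW at 1 month and 0.383 and 0.406 in wild type. At 5 days this sum was 4.25 in KPAW I and 4.78 in wild type I, but 0.350 in KPAW II and 0.458 in wild type II. Xist, the transcript of the inactive X chromosome, was 0.0821 (KPAW I) and 3.13 (KPAW II) at 5 days, against 2.95 and 3.64 in wild type, and lay between 0.0524 and 0.0861 on all 4 arrays of 1 month. The Y-linked gene Eif2s3y ran the other way, with 0.0923 to 0.136 on the arrays of 1 month, 0.149 on KPAW I of 5 days and 0.00901 to 0.0127 on the other 3 arrays of 5 days. The labels give no sex. Both genes thus separated the ages completely in wild type, where age and this difference cannot be told apart for any member. Here each array was scaled to a common trimmed mean, and the values below are scaled signals, comparable between arrays for a gene but not between genes. In whole-eye RNA, fewer cells of a type and less RNA per cell cannot be told apart.

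**Figure D1:**
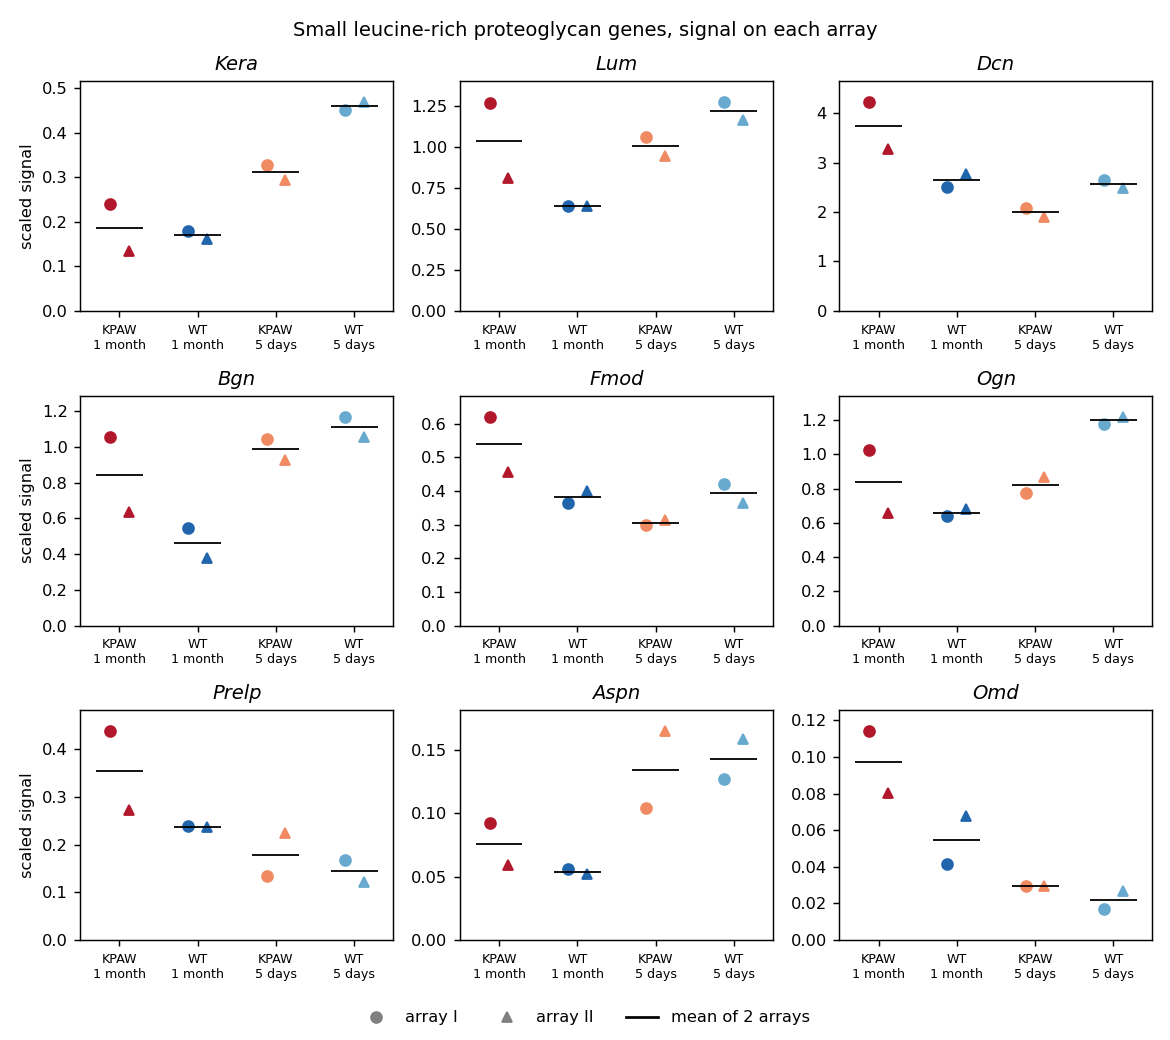
Scaled signal (y axis, linear, from 0) of the 9 proteoglycan genes on each array, with 4 groups along the x axis. Circles are array I, triangles array II and lines the mean of both. Kera was highest in wild type at 5 days (0.452 and 0.469), while Dcn was highest in KPAW at 1 month (4.23 and 3.27).

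With age, wild-type eyes lost signal for 5 of the 9 genes. The comparison of 1 month with 5 days in wild type asks how the stromal proteoglycans change as the eye matures. Kera, Lum, Bgn, Ogn and Aspn fell, by 0.84 to 1.33 on the log2 scale, Dcn and Fmod read close to their 5-day values, and Prelp and Omd read higher without passing the test. Kera, whose mutation in humans flattens the cornea, had 0.180 and 0.163 at 1 month, against 0.452 and 0.469 at 5 days, with the ages well apart. It fell by 1.33 on the log2 scale (SE 0.23, adjusted p = 0.00807 by limma, Benjamini-Hochberg over 15838 probe sets). Lum, which mice need for a clear cornea, had 0.638 and 0.644 at 1 month, against 1.28 and 1.17 at 5 days (log2 change -0.91, SE 0.20, adjusted p = 0.0198). Neither gene overlapped between the ages.

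Bgn, Dcn and Aspn form class I of the family. Bgn, a matrix protein abundant in bone and dermis, had 0.546 and 0.376 at 1 month and 1.17 and 1.06 at 5 days in wild type. It fell by 1.26 on the log2 scale (SE 0.26, adjusted p = 0.0146). Bgn is X-linked, and the difference in Xist and Eif2s3y between the wild-type ages applies to it as to the other members. Dcn, the most widespread member, had 2.51 and 2.77 at 1 month, against 2.64 and 2.48 at 5 days, and the ages overlapped (log2 change 0.04, SE 0.15, adjusted p = 0.871). Aspn, which lacks the usual glycosaminoglycan site and has a run of aspartates, had 0.0561 and 0.0522 at 1 month and 0.127 and 0.159 at 5 days, a change of -1.12 on the log2 scale (SE 0.25, adjusted p = 0.0194). Bgn and Aspn were lower on both 1-month arrays.

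The remaining members were mixed in wild type. Ogn, a keratan sulfate proteoglycan of the corneal stroma, had 0.639 and 0.680 at 1 month, against 1.18 and 1.22 at 5 days, a change of -0.84 on the log2 scale (SE 0.20, adjusted p = 0.0246). Fmod, which guides collagen assembly in tendon, had 0.365 and 0.399 at 1 month and 0.421 and 0.364 at 5 days, with overlap (log2 change -0.03, adjusted p = 0.910). Prelp, which links basement membranes to the matrix, had 0.239 and 0.237 at 1 month, against 0.167 and 0.121 at 5 days. Omd, best known from bone, had 0.0414 and 0.0676 at 1 month and 0.0171 and 0.0269 at 5 days. For both the 1-month arrays lay above the 5-day arrays, but Prelp (log2 change 0.66, SE 0.28, adjusted p = 0.143) and Omd (0.80, SE 0.26, adjusted p = 0.0649) did not pass, and the Omd signals at 5 days lie near the pseudocount of 0.0208, which shrinks its fold change. In all, by the brightest probe set of each gene, 5 of the 9 members fell and none rose, where 9.33% of all probe sets fell and 8.7% rose. For Fmod, 1 of the other probe sets was called higher (0.76, adjusted p = 0.0419). The median over the 9 was -0.84, and over all genes tested -0.01. Counted by arrays that do not overlap between the ages, 5 members were lower and 2 higher, against 33% and 32.5% of all probe sets. Leaving out wild type II at 1 month, or either wild-type array of 5 days, ended all 5 calls, with adjusted p between 0.0520 and 0.123 and log2 fold changes between -1.35 and -0.82. Without wild type I at 1 month Kera and Bgn were still called, and Lum (-0.90, adjusted p = 0.0919), Ogn (-0.80, adjusted p = 0.114) and Aspn (-1.16, adjusted p = 0.0842) were not. On the values as deposited, where the median of all probe sets was itself 0.44 higher at 1 month, Kera alone was still called lower, while Lum (-0.41, adjusted p = 0.289), Bgn (-0.76, adjusted p = 0.0753), Ogn (-0.34, adjusted p = 0.389) and Aspn (-0.71, adjusted p = 0.0978) were not, and Prelp and Omd were called higher (1.12 each).

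**Figure D2:**
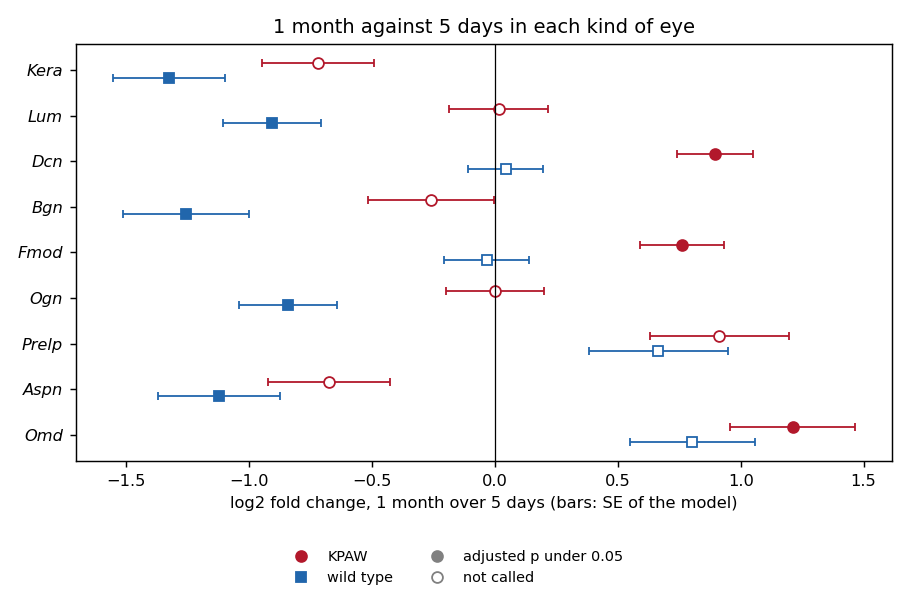
Log2 fold change of 1 month over 5 days (x axis) for the 9 genes (y axis) in KPAW (circles) and wild type (squares), with the standard error of the model. Filled symbols passed at an adjusted p under 0.05: Dcn, Fmod and Omd in KPAW, on the positive side, and Kera, Lum, Bgn, Ogn and Aspn in wild type, on the negative side.

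In KPAW eyes the same comparison of ages gave a different set of calls. Dcn, Fmod and Omd rose, and no member fell. Dcn had 4.23 and 3.27 at 1 month, against 2.08 and 1.90 at 5 days, a change of 0.90 on the log2 scale (SE 0.15, adjusted p = 0.00947). Fmod had 0.621 and 0.456 at 1 month and 0.299 and 0.313 at 5 days (0.76, SE 0.17, adjusted p = 0.0252). Omd had 0.114 and 0.0801 at 1 month and 0.0294 and 0.0298 at 5 days (1.21, SE 0.26, adjusted p = 0.0202). Its 5-day means (0.0296 in KPAW, 0.022 in wild type) lay below the filter cutoff of 0.0406. Its 1-month means (0.0971 and 0.0545) lay above that cutoff, so Omd was tested because of its 1-month signals. The 5-day signals lie near the pseudocount, on which the size of the change depends. It was 1.42 with the lower pseudocount and 0.95 with the doubled one, and was called with each. In Dcn, Fmod and Omd both arrays of 1 month lay above both of 5 days. They make 3 of 9 members called higher, where 6.76% of all probe sets rose and 7.51% fell. Counted by arrays that do not overlap, 4 members lay higher at 1 month, Prelp with these 3, and 2 lower, against 25.3% and 32.2% of all probe sets.

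Of the members called in wild type, none was called in KPAW. Kera had 0.240 and 0.134 at 1 month, against 0.327 and 0.295 at 5 days in KPAW (log2 change -0.72, SE 0.23, adjusted p = 0.0744), and Aspn 0.0925 and 0.0596, against 0.104 and 0.165 (-0.68, SE 0.25, adjusted p = 0.108). Neither gene overlapped between the ages. Lum (log2 change 0.02, adjusted p = 0.969), Bgn (-0.26, adjusted p = 0.535) and Ogn (0.00, adjusted p = 0.997) overlapped between the ages in KPAW. Prelp had 0.438 and 0.272 at 1 month, against 0.134 and 0.224 at 5 days (0.91, SE 0.28, adjusted p = 0.0690). The 9 members had a median of 0.02, and all genes tested -0.03. Without KPAW II at 5 days, the KPAW array with high Xist, none was left (Dcn 0.83, adjusted p = 0.0621; Fmod 0.79, adjusted p = 0.103; Omd 1.22, adjusted p = 0.0903). Without KPAW I at 5 days, Fmod (0.73, adjusted p = 0.0859) and Omd (1.21, adjusted p = 0.0637) were lost. Without KPAW I at 1 month, the array with few rod transcripts, Dcn stayed called, Fmod (0.55, adjusted p = 0.0699) and Omd (1.00, adjusted p = 0.0837) did not, and Kera was called lower (-1.09, adjusted p = 0.00694). Without KPAW II at 1 month Prelp was called too (1.24, adjusted p = 0.0352). Fitted to the KPAW arrays alone, Dcn (adjusted p = 0.0605), Fmod (adjusted p = 0.0936) and Omd (adjusted p = 0.0510) kept their values and missed the threshold. Fmod was also not called on the values as deposited (0.79, adjusted p = 0.127) or with its probe sets averaged (0.67, adjusted p = 0.0585).

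The 4 comparisons share arrays, since each group enters both an age and a KPAW comparison. The calls of the age comparisons differ between KPAW and wild type, but the difference itself did not pass. That difference is the same quantity as the KPAW effect at 1 month minus the KPAW effect at 5 days. It was positive in all 9 members, between 0.25 (Prelp) and 1.00 (Bgn), with a median of 0.79. Of all genes tested, 4706 of 9492 were positive, with a median of -0.004. The sign was not particular to the members: 13 of 14 collagens (median 0.88) and 12 of 12 fibroblast markers (median 0.72) were positive. So were 6 of 6 lens markers (median 0.41), but 0 of 7 rod markers (median -2.70). For the 9 members adjusted p lay between 0.809 and 0.912. In limma no probe set passed this test (0% of 15838), the lowest adjusted p being 0.292, while 932 reached an unadjusted p under 0.05. Lum, Dcn, Bgn, Fmod and Ogn were among these. Without KPAW II at 1 month, Lum (1.24, adjusted p = 0.0249), Dcn (1.04, adjusted p = 0.0495) and Ogn (1.16, adjusted p = 0.0308) passed.

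Whether the young adult eye differs is asked by KPAW against wild type at 1 month. All 9 genes read higher in KPAW, by 0.07 to 0.83 on the log2 scale, and none passed the test. Of all genes tested, 4724 of 9492 read higher. Bgn had 1.06 and 0.634 in KPAW, against 0.546 and 0.376 in wild type, with a mean of 0.846 ± 0.299 in KPAW and 0.461 ± 0.120 in wild type (SD, n = 2 each). Its log2 fold change of 0.83 (SE 0.26, adjusted p = 0.671) was the largest of the 9. Lum had 1.27 and 0.813 in KPAW, against 0.638 and 0.644 in wild type (0.65, SE 0.20, adjusted p = 0.673). Dcn had 4.23 and 3.27 in KPAW, against 2.51 and 2.77 in wild type (0.49, SE 0.15, adjusted p = 0.673). In these 3 genes the KPAW and wild-type arrays did not overlap.

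Fmod had 0.621 and 0.456 in KPAW, against 0.365 and 0.399 in wild type at 1 month (log2 change 0.46, SE 0.17, adjusted p = 0.675). Omd had 0.114 and 0.0801 in KPAW and 0.0414 and 0.0676 in wild type (0.65, SE 0.26, adjusted p = 0.675). Prelp, with 0.438 and 0.272 in KPAW against 0.239 and 0.237 in wild type, and Aspn, with 0.0925 and 0.0596 in KPAW against 0.0561 and 0.0522 in wild type, were separated too. Kera and Ogn were not: Kera had 0.240 and 0.134 in KPAW, against 0.180 and 0.163 in wild type (0.07, SE 0.23, adjusted p = 0.952), and Ogn had 1.03 and 0.656 in KPAW, against 0.639 and 0.680 in wild type (0.31, SE 0.20, adjusted p = 0.698). By the brightest probe sets, KPAW thus lay above wild type without overlap in 7 of 9 members, where 17% of all probe sets did so. It lay below wild type in none, where 19.6% did. The second Aspn probe set overlapped (log2 change 0.05), as did the dimmest of Bgn and most of the others of Fmod. By limma 0 members passed at an adjusted p under 0.05 (0.0253% of all probe sets were called, 0.0126% higher), and 5 had an unadjusted p under 0.05, Lum, Dcn, Bgn, Fmod and Omd, as did 1099 of all 15838 probe sets. The values as deposited had a median over all probe sets of -0.26 in this comparison. On them Bgn read 0.555, Omd 0.453, Lum 0.37, Prelp 0.24, Dcn 0.21, Fmod 0.19, Aspn 0.14 and Ogn 0.04, while Kera read -0.188. On the scaled arrays the median of the 9 was 0.49, and that of all genes tested -0.001.

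The KPAW arrays of 1 month differed from each other in the same way for every member. KPAW I read higher than KPAW II in all 9 genes, by 0.37 (Dcn) to 0.75 (Kera) on the log2 scale. Relative to the wild-type mean, the median over the 9 genes was 0.68 for array I and 0.24 for array II, and over all genes tested 0.02 and -0.003. Ogn in KPAW II lay at -0.01 and Kera at -0.31, so these genes exceeded that mean on array I alone. KPAW I is the array with few rod transcripts and the highest epidermis sum, and 12 macrophage markers summed to 3.15 (2.36 on the other KPAW array), against 1.75 and 1.59 in wild type. The part of these in the proteoglycan values was not tested. Without KPAW II, where KPAW I is the lone KPAW array of this age and is assumed to vary like the other groups, Lum (0.96, adjusted p = 0.0170) and Bgn (1.19, adjusted p = 0.0373) passed. Without KPAW I no member passed, and the values ran from -0.31 for Kera to 0.47 for Bgn.

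**Figure D3:**
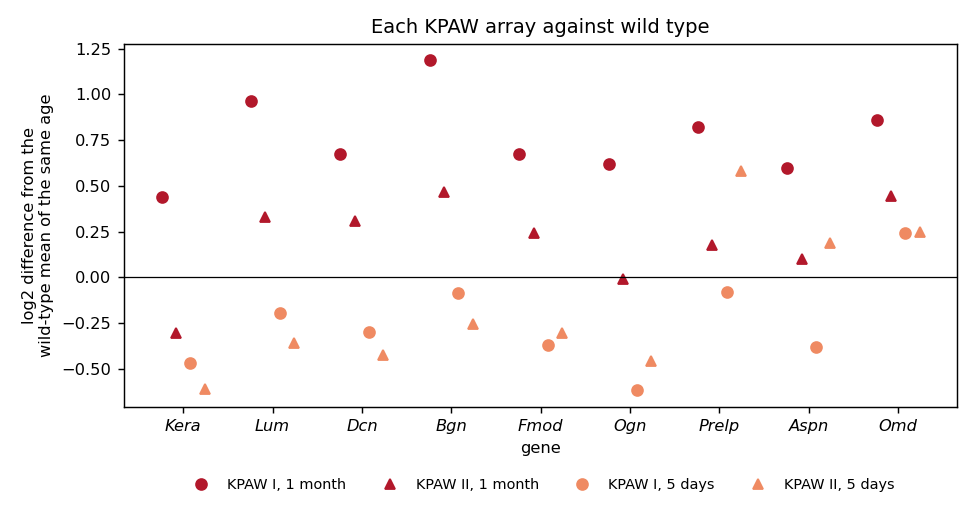
Log2 difference of each KPAW array from the wild-type mean of the same age (y axis) for the 9 genes (x axis). Circles are array I and triangles array II, dark for 1 month and light for 5 days. KPAW I at 1 month lies above 0 in all 9 genes and above KPAW II throughout, and both 5-day KPAW arrays lie below 0 in Kera, Lum, Dcn, Bgn, Fmod and Ogn.

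Whether the early postnatal eye already differs is asked by the 5-day groups. Most members read lower in KPAW, none passed, and no change was larger than 0.54 on the log2 scale. Of all genes tested, 4872 of 9492 read lower. Kera had 0.327 and 0.295 in KPAW, against 0.452 and 0.469 in wild type (log2 change -0.54, SE 0.23, adjusted p = 1.00). Ogn had 0.776 and 0.867 in KPAW, against 1.18 and 1.22 in wild type (-0.54, SE 0.20, adjusted p = 1.00). Dcn had 2.08 and 1.90 in KPAW, against 2.64 and 2.48 in wild type (-0.36, SE 0.15, adjusted p = 1.00). In these genes both KPAW arrays lay below both wild-type arrays.

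Fmod (0.299 and 0.313 in KPAW, against 0.421 and 0.364 in wild type), Lum (1.07 and 0.948 in KPAW, against 1.28 and 1.17 in wild type) and Bgn (1.05 and 0.927 in KPAW, against 1.17 and 1.06 in wild type) were also lower on both KPAW arrays, with log2 fold changes of -0.34, -0.28 and -0.17. Omd (0.0294 and 0.0298 in KPAW, against 0.0171 and 0.0269 in wild type) was higher on both. Aspn (0.104 and 0.165 in KPAW, against 0.127 and 0.159 in wild type) and Prelp (0.134 and 0.224 in KPAW, against 0.167 and 0.121 in wild type) overlapped. By the brightest probe sets, 6 of 9 members lay lower in KPAW without overlap and 1 higher, where 16.6% and 16.8% of all probe sets did so. The other Bgn and Fmod probe sets overlapped. In limma no probe set passed (0% of 15838), though 379 had an unadjusted p under 0.05, and Kera, Dcn and Ogn were among these. A fit without a variance trend also called 0, with 397 at that level. The median of the 9 was -0.28, against -0.005 for all genes tested. The 5-day arrays differed in epidermis and hair transcripts: 7 hair follicle markers summed to 0.776 (KPAW I) and 0.171 (KPAW II), against 4.43 in wild type I and 0.183 in wild type II. The part of these in the proteoglycan values was not tested.

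**Figure D4:**
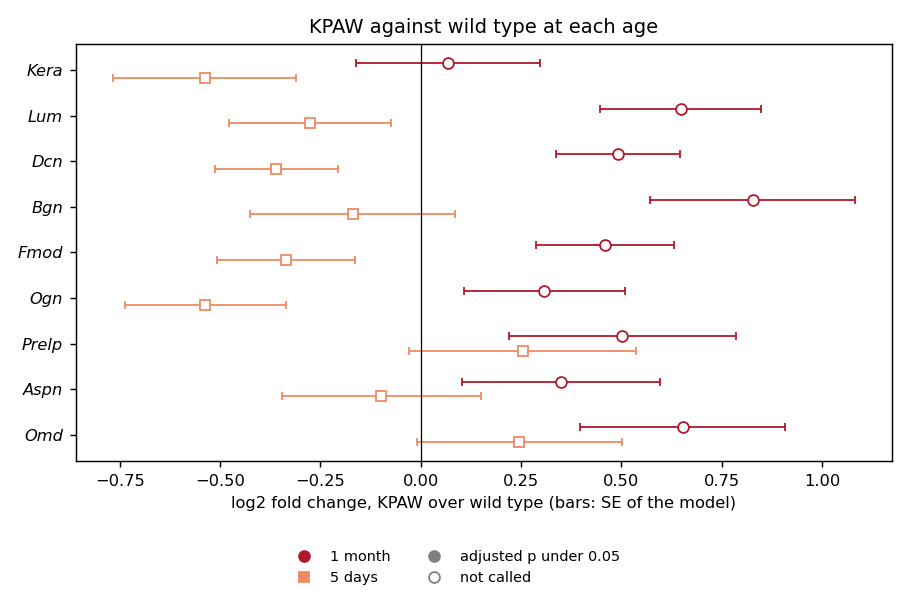
Log2 fold change of KPAW over wild type (x axis) for the 9 genes (y axis) at 1 month (circles) and 5 days (squares), with the standard error of the model. Open symbols did not pass, which holds for all of them. The 1-month values run from 0.07 (Kera) to 0.83 (Bgn), and 7 of the 9 values of 5 days are below 0.

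Lum, Dcn, Bgn and Fmod lay above wild type at 1 month and below it at 5 days on every KPAW array. Such opposite separation was found in 4 of 9 members, each by its brightest probe set, and in 3.74% of all probe sets. No other probe set of Bgn or Fmod separated this way, since each overlapped at 5 days. The order of the 4 groups differed among the genes. Kera was highest in wild type at 5 days, then KPAW at 5 days, then KPAW and wild type at 1 month, the last 2 overlapping. Bgn, Aspn and Lum kept wild type at 1 month lowest and clear of the group above it. In Ogn wild type at 1 month was lowest by mean and clear of KPAW at 5 days, but overlapped KPAW at 1 month. In Bgn, KPAW at 5 days and at 1 month overlapped, and in Aspn the 5-day groups did. Omd ran the other way, with KPAW at 1 month highest, then wild type at 1 month, KPAW at 5 days and wild type at 5 days, and no neighbours overlapped. Prelp had the same order, with the 5-day groups overlapping. Dcn and Fmod were highest in KPAW at 1 month and lowest in KPAW at 5 days, with the wild-type ages overlapping in between.

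Genes with several probe sets gave a check within the array. Of the 19 probe sets, 18 passed the filter on dim signals. The brightest probe set of a gene gave the values above. All 3 Bgn probe sets were called lower at 1 month in wild type (-1.26, -1.54 and -1.91), and both of Aspn (-1.12 and -1.34). The second Ogn probe set gave -0.68 and missed the threshold (adjusted p = 0.0525). Fmod had 6 probe sets that did not agree on age in wild type: 1 was called higher (0.76, adjusted p = 0.0419), and the other 5 lay between -0.03 and 0.23. In KPAW the same probe set rose by 1.18 (adjusted p = 0.0103) and the main one by 0.76, while the other 4 lay between 0.25 and 0.72 and were not called. Between KPAW and wild type the second Aspn probe set read 0.05 at 1 month, with overlap (0.0425 and 0.0285 in KPAW, against 0.0334 and 0.0333). The other Bgn probe sets read 0.805, without overlap, and 0.69, with overlap. The other 5 Fmod probe sets lay between 0.11 and 0.33, most with overlap. At 5 days the other Aspn, Bgn and Fmod probe sets overlapped, and the second of Ogn lay lower on both KPAW arrays. The second Prelp probe set was at the lowest listed value on 5 of 8 arrays and was not tested.

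Profiles over the 8 arrays, compared after subtracting each gene's mean log2 value, placed Dcn and Fmod closest among all pairs of members, with a root mean square difference of 0.079. Lum and Ogn (0.179) and Lum and Bgn (0.218) followed, and Kera and Omd were farthest apart (1.09). Neighbours on a chromosome were not among the 3 closest pairs. Fmod and Prelp differed by 0.344, Lum and Kera by 0.371, Dcn and Lum by 0.468, Omd and Ogn by 0.788, and Aspn and Omd by 0.988. Among all other genes tested, the profile nearest to Ogn was that of Islr, which encodes a leucine-rich repeat protein of stromal cells (0.042), then Id3 (0.086) and Aebp1 (0.102). Dpt (dermatopontin), a matrix protein that binds decorin, was the nearest to Fmod (0.073) and the second nearest to Dcn (0.099). Ndufa1 (0.076), Bckdhb (0.088) and Crtap (0.097), part of the complex that 3-hydroxylates collagen prolines, were nearest to Lum. Nearest to Kera were Ptpn5 (0.116) and Col18a1 (0.153), to Bgn Flna (0.141), to Aspn Adam10 (0.094), to Prelp Sel1l3 (0.125) and to Omd Cebpd (0.164). These are descriptions over the same 8 arrays, 4 of each age.

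**Figure D5:**
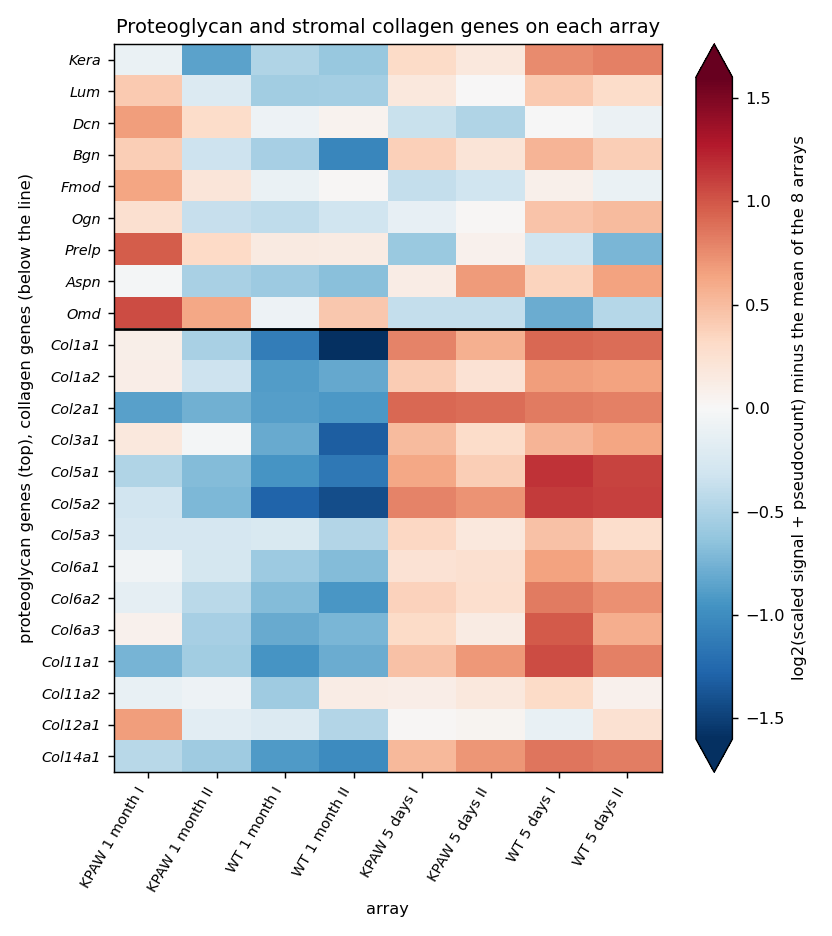
Log2(scaled signal + 0.0208) minus each gene's mean over the 8 arrays (colour), for the 9 proteoglycan genes (top) and 14 collagen genes (below the line), by array (x axis). The collagen rows are low in wild type at 1 month and high at 5 days with few exceptions, while among the proteoglycan rows Kera fell by 1.33 and Omd read 0.80 higher at 1 month than at 5 days in wild type.

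Most collagens of the fibrils that these proteins bind fell with age in wild type. There 12 of 14 fell and none rose, with a median log2 fold change of -1.62, where 9.33% of all probe sets fell. Col5a2 (-2.46), Col1a1 (-2.29), Col5a1 (-2.17) and Col14a1 (-1.79) were among them. In KPAW 7 of 14 fell, 1 of the 14 read higher, and the median was -0.57, where 7.51% of all probe sets fell. Among the 7 were Col2a1 (-1.72, the collagen of cartilage and vitreous), Col5a2 (-1.27) and Col11a1 (-1.23). At 1 month all 14 read higher in KPAW than in wild type, with a median of 0.49, and none passed (Col3a1 at 1.13, adjusted p = 0.219, Col5a2 at 0.84, adjusted p = 0.365, and Col1a1 at 1.17, adjusted p = 0.396). At 5 days 13 of 14 read lower in KPAW, with a median of -0.27. These medians stand beside 0.49 and -0.28 for the proteoglycans and -0.001 and -0.005 for all genes tested. Of 18 genes that process and crosslink collagen, 9 fell in wild type, among them the crosslinking enzyme Lox (-1.99) and the collagen chaperone Serpinh1 (-1.83), and 1 rose, Pcolce2 (1.71). In KPAW 3 fell (Lox at -1.50, Serpinh1 at -1.09 and Ppib at -0.55) and Pcolce2 rose (1.66).

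The shares of all probe sets called with age were 8.7% higher and 9.33% lower in wild type, and 6.76% higher and 7.51% lower in KPAW, and the counts of the following short lists stand beside these. Among 11 keratan sulfate synthesis genes tested, B3gnt2, which extends the poly-lactosamine backbone, rose with age in wild type (0.80, adjusted p = 0.0217) and in KPAW (0.82, adjusted p = 0.0232), and none fell in either. In KPAW the sulfotransferase genes Chst2 (0.83) and Chst5 (0.75) rose as well, so that 3 of the 11 rose there and 1 of the 11 in wild type. Of 11 chondroitin and dermatan sulfate synthesis genes, B3gat3 (0.57) and Csgalnact2 (0.92) rose in wild type and Chst14, the dermatan 4-O-sulfotransferase gene, fell (-1.50, adjusted p = 0.0235), while none was called in KPAW. For KPAW against wild type no gene of either list passed at either age, and the medians were 0.03 and -0.10 at 1 month.

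Among 18 ligands, receptors and mediators of TGF-beta, 2 fell in wild type with age, Eng (-1.05) and Smad4 (-0.56), and 2 in KPAW, Tgfbr1 (-0.79) and Smad4 (-0.59). These shares are near those of all probe sets. Of 8 TGF-beta target genes, 4 fell in wild type, among them Postn (-2.22), Skil (-1.26) and Fn1 (-0.95), and Tgfbi, which encodes an abundant corneal protein, rose (2.44, adjusted p = 0.00484). In KPAW 3 of them fell (among them Skil at -1.56 and Postn at -1.50), while the contractile genes Acta2 (0.71) and Tagln (1.03) rose. Of 10 receptors reported to bind these proteoglycans, Met rose in both wild type (0.78) and KPAW (0.93), and Itgb1 fell in wild type (-1.14). Among 11 matrix proteases and inhibitors, Mmp9 (1.00) and Timp3 (1.21) rose in wild type and 3 fell, Bmp1 (-0.93) and Mmp2 (-0.74) among them. In KPAW Timp3 (1.56), Mmp3 (1.41) and Mmp9 (0.89) rose and none fell.

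Other family members were few. Of 9 further genes of the family, 3 were on the array and tested. Chad (chondroadherin), a cartilage matrix protein, had a mean of 0.149 at 1 month and 0.0120 at 5 days in KPAW and rose there (2.18, adjusted p = 0.0265), with a 5-day mean below the pseudocount. Epyc, next to Kera on chromosome 10, had means of 0.0910 in KPAW and 0.0507 in wild type at 1 month (0.66, adjusted p = 0.675). Optc, a vitreous protein gene next to Prelp, had a mean of 0.138 in both. Of 10 keratocyte markers, Kera and Lum included, 4 rose and 4 fell with age in wild type: Aldh3a1 (4.82) and Angptl7 (1.19) were among those that rose, and Thbs2 (-1.72) fell beside Kera and Lum. In KPAW 5 rose and 2 fell. Aldh3a1 is also abundant in corneal epithelium. The summed signal of the 12 fibroblast markers was 13.8 and 10.7 in KPAW at 1 month, against 7.96 and 8.03 in wild type, and 15.8 and 14.4 in KPAW at 5 days, against 17.9 and 18.1 in wild type, with none of them at the lowest listed value on both arrays of a group. The 10 keratocyte markers summed to 14.9 and 15.2 in KPAW at 1 month, against 15.8 and 17.4 in wild type. At 5 days they summed to 7.199 and 6.981 in KPAW, against 8.815 and 8.530 in wild type. This sum, which the brightest genes dominate, was lower on the KPAW arrays at both ages. Gene by gene, 8 of the 10 read higher in KPAW at 1 month and 2 lower (median log2 change 0.23). At 5 days 1 read higher and 9 lower (median -0.26), and none passed at either age. For cartilage markers the sums were 1.01 and 0.949 in KPAW against 0.915 and 0.825 in wild type at 1 month. The part of fibroblast, keratocyte and cartilage content in the proteoglycan values was not tested.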

How the data were processed

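The authors deposited 1 intensity per probe set and array, in a table with 8 columns and 22690 probe sets; its scale, software and build are not given in the sources used here. It was read as linear, since no value lay below 0.01, 10.0% to 14.9% of values per array stood at that value and the highest was 11.1. Control probe sets (64) were left out. Arrays were scaled to the median of their trimmed means (2% off each end), which differed up to 1.78-fold, and log2(signal + 0.0208) was taken. The pseudocount was the 20th percentile of all positive deposited values, before scaling and with controls included. Probe sets with a mean above the 30th percentile, 15838 for 9492 genes, were fitted with limma 3.58.1 (R 4.3.3): a mean per group over all 8 arrays, variance trend, 4 residual degrees of freedom, Benjamini-Hochberg over all probe sets, calls under 0.05. The number of arrays limits the precision. Symbols came from GEO's platform annotation: 20380 probe sets had 1, 691 several and 1555 none. A gene was represented by its brightest single-symbol probe set.

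Named genes were the members, up to 4 called genes of each list with the largest changes (otherwise 3 with the largest statistics), and the 3 nearest profiles per member. Members and lists were chosen with earlier results of these data known. Lists are described by counts and medians without a set test. Alternatives were run for scaling, pseudocount, filter, variance model, samples, block, probe sets and arrays left out, and the closing section gives those that changed a count or a sign. The model was tested on simulated data with independent noise and with changes larger than the members' KPAW effects. That test does not speak to KPAW effects of the size seen here. Numerals I and II come from the titles. Plots used Python 3.11.15 and matplotlib 3.10.9.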

Additional observations from a re-analysis of the deposited data

Results flagged for a closer look

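In Lum, Dcn, Bgn and Fmod each KPAW array was higher than each wild-type array at 1 month and lower at 5 days, so that the difference from wild type had opposite signs at the 2 ages. The change in the KPAW effect from 5 days to 1 month was 0.92 for Lum, 0.85 for Dcn, 1.00 for Bgn and 0.79 for Fmod on the log2 scale, and in limma none of the 4 passed (adjusted p = 0.809 for each). On the values as deposited these changes were 0.46 for Lum, 0.38 for Dcn, 0.53 for Bgn and 0.34 for Fmod (adjusted p between 0.560 and 0.674), and Fmod was at 0.46 with its probe sets averaged. The 4 values come from the same 8 arrays and from the brightest probe set of each gene. In Bgn and Fmod the other probe sets overlapped at 5 days.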

How the results depend on the processing

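With the values as deposited, KPAW against wild type at 1 month called 99 probe sets where the scaled arrays called 4, its change with age called 36 where they called 0, and age in KPAW called 1343 (873 higher, 470 lower) where they called 2259 (1070 higher, 1189 lower). Age in wild type then split into 3238 higher and 327 lower, against 1378 and 1478, and into 1184 and 1982 with median scaling. On the values as deposited the median of all probe sets was -0.26 for KPAW at 1 month (-0.01 scaled), 0.18 for KPAW at 5 days (0.01 scaled), 0.44 for age in wild type (-0.004 scaled) and -0.45 for the change of the KPAW effect (-0.03 scaled). At 1 month the lower pseudocount gave 2 calls, the stricter filter 2 and the 2 groups fitted alone 19. Age in KPAW fitted alone gave 621. Quantile normalization, median scaling, the doubled pseudocount, no filter, no variance trend and averaged probe sets each gave counts within 1.5 times the main counts for all 5 comparisons. Leaving out single arrays gave 0 to 562 calls for KPAW at 1 month, 0 to 27 at 5 days, 733 to 2173 for age in KPAW, 849 to 3690 for age in wild type and 0 to 306 for the change of the KPAW effect. The highest counts of the first and the last came without KPAW II at 1 month, and the 27 without KPAW II at 5 days.

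With the numerals as a replicate block, 13 probe sets were called for KPAW at 1 month, 0 at 5 days, 2367 for age in KPAW, 2990 for age in wild type and 0 for the change of the KPAW effect, and the members called were the same as without it. Deviations of same-numbered arrays correlated between -0.02 and 0.31 over the pairs of groups and exceeded 0.1 in 3 of 6 pairs. The highest, 0.31, was between KPAW and wild type at 5 days. There array I had the higher epidermis and hair sums in both groups. What same-numbered arrays share was not tested. The main fit did not take the numerals as pairs.

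Several member values that passed no test changed sign. For KPAW at 1 month, Kera was -0.188 as deposited and -0.305 without KPAW I of that age, where Ogn was -0.006; without KPAW II Kera was 0.442. At 5 days, Bgn was 0.025 and Aspn 0.082 as deposited, Aspn 0.186 without KPAW I and 0.042 without wild type II of that age, and Prelp -0.077 without KPAW II. For age in KPAW, Lum was -0.299 without KPAW I of 1 month and -0.067 without KPAW II of 5 days, Bgn 0.100 without KPAW II of 1 month, and Ogn -0.004 with quantile normalization, -0.006 with median scaling, -0.312 without KPAW I of 1 month and -0.077 without KPAW I of 5 days. For age in wild type, Dcn was -0.048 with median scaling, -0.026 without wild type II of 1 month and -0.001 without wild type II of 5 days, and Fmod was 0.450 as deposited, 0.208 with probe sets averaged, 0.026 without wild type I of 1 month and 0.065 without wild type I of 5 days. The change of the KPAW effect in Prelp was -0.187 as deposited, -0.074 without KPAW I of 1 month and -0.082 without KPAW I of 5 days. Over the fits that left out 1 array, the other end of the range was 0.622 for Ogn (KPAW at 1 month), 0.584 for Prelp and -0.382 for Aspn (KPAW at 5 days), 0.330 for Lum, -0.619 for Bgn and 0.315 for Ogn (age in KPAW), 0.111 for Dcn and -0.134 for Fmod (age in wild type) and 0.579 for Prelp (change of the KPAW effect). The causes were not tested. The 5 falls in wild type kept their direction in each alternative run. Omd was left out by the stricter filter. With 2 arrays a group, a fit without 1 of them assumes that the lone array varies like the other groups.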
